A study of Homo sapiens with 20 samples.

Results

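The genes of the clustered histone loci were followed in human lung cancer cells after decitabine (DAC). They were chosen by name alone, as the rows of the expression table whose symbol begins with HIST1H, HIST2H, HIST3H or HIST4H, which gave 62 of 36076 genes. No measured value enters that rule, but the family was picked with DAC differences of these data already known, so its differences below are a description of the members and no independent evidence. The 62 genes comprise 6 of linker histone H1, 13 of H2A, 17 of H2B, 13 of H3 and 13 of H4. By cluster, 48 carry the HIST1 prefix, 10 HIST2, 3 HIST3 and 1 HIST4. On the GRCh37 annotation 61 of them could be placed, 48 on chromosome 6, 12 on chromosome 1 and 1 on chromosome 12, and the reference transcript of all 61 had a single exon. For 16 of the 61 the annotation also lists at least 1 spliced transcript.

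Core histones H2A, H2B, H3 and H4 form the protein spool around which DNA is wound, and H1 binds the linker DNA between spools. Most genes of these clusters are replication dependent: NPAT drives their transcription in S phase, and their mRNA ends not in a poly(A) tail but in a short stem-loop that the stem-loop binding protein SLBP recognises. Some members can also be transcribed past the stem-loop and polyadenylated, above all in cells that leave the cycle or differentiate, and libraries made by poly(A) capture see that form best.

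The study asked how low-dose DAC, an inhibitor of DNA methyltransferases, alters lung cancer cells. mRNA-seq libraries were available for the human lung cancer lines A549, CL1-0, CL1-5, PC9, H1299 and H1792, each as Mock (PBS) and as DAC, given at 100 nM for 72 h and followed by a drug-free interval of 3 days, with 1 library per line and treatment and 12 in all. Omni-ATAC-seq, which maps open chromatin, covered A549, CL1-5, PC9 and H1299 under both treatments, giving 8 libraries. The libraries were prepared with a stranded mRNA kit that captures poly(A) tails. All groups are established lines grown in the same serum-containing medium, no line was edited, and Mock cells differ from DAC cells of the same line by the drug alone as far as the labels go. Because each line stands for 1 culture per treatment, the lines served as replicates, and p-values measure the spread of the DAC effect between lines. In bulk RNA a change per cell and a change in the share of cells that express a gene cannot be told apart.

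The 3′ stem-loop is shown for the members on which the results turn, read from the GRCh37 genome 5′ to 3′ on the gene's strand, with the stem-loop in capitals (a stem of 6 bases, a loop of 4, and the stem's other strand) and 5 flanking bases on each side in lower case.
HIST2H2BE (chr1:149857733-149857758, minus strand): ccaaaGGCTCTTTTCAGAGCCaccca
HIST1H1C (chr6:26055967-26055992, minus strand): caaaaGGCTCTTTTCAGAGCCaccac
HIST1H2BD (chr6:26158810-26158835, plus strand): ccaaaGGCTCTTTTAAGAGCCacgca
HIST1H2BJ (chr6:27100095-27100120, minus strand): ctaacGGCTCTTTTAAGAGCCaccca
HIST1H2BK (chr6:27114140-27114165, minus strand): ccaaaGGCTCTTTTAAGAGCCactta
HIST2H2AC (chr1:149858936-149858961, plus strand): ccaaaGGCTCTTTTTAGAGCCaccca
HIST1H4H (chr6:26285354-26285379, minus strand): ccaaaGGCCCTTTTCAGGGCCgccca
HIST1H4I (chr6:27107428-27107453, plus strand): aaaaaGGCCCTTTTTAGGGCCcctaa
Within 150 bases after the stop codon, a stem-loop of this form was found in 58 of the 61 placed members (95.1%) and in 18 of 19824 other protein-coding genes (0.0908%). It began 23 to 63 bases after the stop codon. HIST1H2BI, HIST1H3E and HIST1H4L held no such letters in that window. The members known for polyadenylated transcripts carry the stem-loop too, as the lines for HIST2H2BE and HIST1H2BD show.

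Just 6 spellings accounted for the 58 stem-loops. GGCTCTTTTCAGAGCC was the commonest, with 35 genes of classes H1, H2A, H2B and H3 and none of H4. The 12 H4 genes with a stem-loop used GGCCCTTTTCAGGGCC (8 genes) or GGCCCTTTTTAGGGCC (4 genes), which no gene of another class had. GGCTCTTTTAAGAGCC was found in 9 genes, among them HIST1H2BC, HIST1H2BD, HIST1H2BJ and HIST1H2BK. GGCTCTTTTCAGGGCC occurred once, in HIST1H2AG, and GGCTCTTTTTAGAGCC once, in HIST2H2AC.

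Promoters are printed for 3 members of different classes because their motifs set the classes apart. They are RefSeq sequences on GRCh38.p14, 250 bases before to 50 bases after the annotated start, with motif letters in capitals.
HIST2H2BE (chr1:149886633-149886932, minus strand): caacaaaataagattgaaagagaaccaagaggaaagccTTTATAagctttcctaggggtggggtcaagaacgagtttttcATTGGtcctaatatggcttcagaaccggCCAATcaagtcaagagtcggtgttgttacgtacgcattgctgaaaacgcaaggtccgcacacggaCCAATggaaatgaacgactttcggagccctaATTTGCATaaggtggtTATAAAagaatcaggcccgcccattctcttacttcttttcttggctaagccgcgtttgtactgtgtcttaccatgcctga
HIST1H1C (chr6:26056421-26056720, minus strand): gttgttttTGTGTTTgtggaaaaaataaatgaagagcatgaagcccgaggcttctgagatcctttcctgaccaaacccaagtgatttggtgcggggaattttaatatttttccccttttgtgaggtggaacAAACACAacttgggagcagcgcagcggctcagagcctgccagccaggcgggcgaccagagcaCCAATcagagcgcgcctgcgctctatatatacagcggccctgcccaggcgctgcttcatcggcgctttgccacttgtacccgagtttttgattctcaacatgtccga
HIST1H4H (chr6:26285485-26285784, minus strand): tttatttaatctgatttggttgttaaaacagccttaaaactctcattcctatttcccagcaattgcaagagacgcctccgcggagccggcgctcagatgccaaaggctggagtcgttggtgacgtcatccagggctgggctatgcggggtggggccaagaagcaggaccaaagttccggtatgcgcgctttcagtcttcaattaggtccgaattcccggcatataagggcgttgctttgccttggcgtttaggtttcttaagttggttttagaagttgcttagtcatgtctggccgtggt
The motifs searched on both strands were TATAAA, the CCAAT box, the octamer ATTTGCAT and the H1 box AAACACA. The letters TATAAA on one strand can overlap TTTATA read on the other. Of the 62 members, 53 matched a promoter in a table of 35116. TATAAA was present in 67.9% of the 53 against 11.5% of all promoters, and CCAAT in 83% against 34.6%. The octamer was held by 83.3% of H2A and 78.6% of H2B promoters, by none of the H1, H3 or H4 promoters, and by 1.77% of all promoters. AAACACA was present in all 6 H1 promoters against 5.64% of all promoters. CCAAT was in every H1, H2A, H2B and H3 promoter that matched but in 18.2% of the H4 promoters, and HIST1H4H held none of the motifs in this window. These matches describe letters and not bound sites.

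Reads on genes numbered 22234485 to 25303899 in the 10 libraries other than H1299, and 59735913 (Mock) and 52634234 (DAC) in H1299. The H1299 pair stands apart in another respect: 85.5% (Mock) and 81.9% (DAC) of its genes with 1 to 20 reads had an even count, where the remaining libraries gave 39.2 to 41.5%, and its reads cannot be taken as independent. HIST2H2BC, HIST2H3A and HIST2H4B were at 0 reads in both H1299 libraries while all had reads in the Mock libraries of the other lines. The medians of fold changes over the lines are therefore also given without H1299. Epithelial markers summed from 0.986 to 3589 FPKM (fragments per kilobase of gene, scaled for depth), and CL1-0 had KRT7 and KRT19 at 0 in Mock. The sum of 4 fibroblast markers ranged from 0.276 to 98.4 FPKM.

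Summed over the 62 genes, histone mRNA was higher with DAC in each of the 6 lines, and this was the broadest feature of the family. The sum went from 141 FPKM in Mock to 529 with DAC in A549, from 382 to 876 in CL1-0, from 247 to 1073 in CL1-5, from 114 to 177 in PC9, from 530 to 1722 in H1299 and from 137 to 364 in H1792. The ratio of DAC to Mock was 3.75, 2.29, 4.34, 1.55, 3.25 and 2.66 in the same order. PC9 had the lowest sum under both treatments and the smallest ratio, and H1299 the highest sum under both. Mock and DAC sums overlap between lines, since Mock H1299 lies above DAC A549, while no line had a lower sum with DAC.

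**Figure D1:**
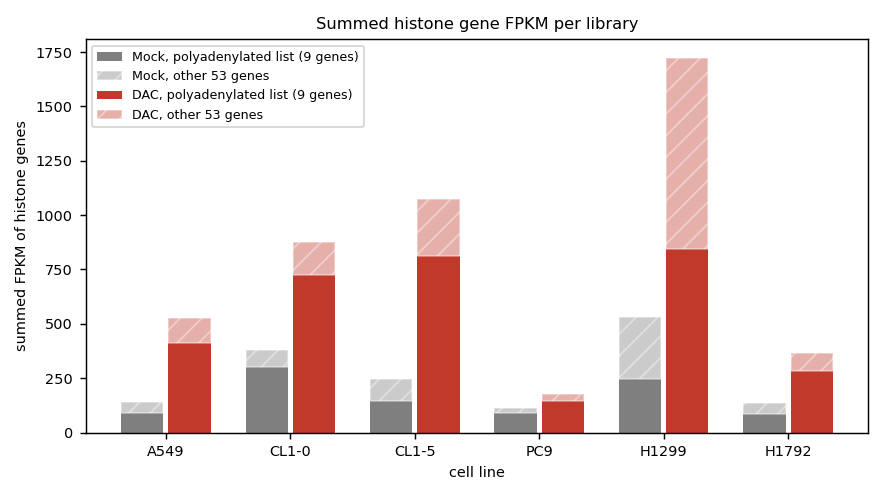
Summed FPKM of the 62 histone genes in each of the 12 libraries, by cell line, with grey bars for Mock and red bars for DAC and the 9 genes of the polyadenylated list drawn solid below the other 53 (hatched). The DAC bar is taller in each line, from 1.55 times Mock in PC9 to 4.34 times in CL1-5.

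A few genes made up most of this RNA. The polyadenylated list holds 9 members known to give polyadenylated transcripts, namely HIST1H1C, HIST1H2AC, HIST1H2BC, HIST1H2BD, HIST1H2BJ, HIST1H2BK, HIST2H2BE, HIST3H2A and HIST4H4, and was drawn from background knowledge. These took 45.5% (H1299) to 66.8% (CL1-0) of the reads on all 62 genes in Mock and 45.8% (H1299) to 69.8% (H1792) with DAC. The 95% Wilson interval for DAC H1792 was 68.7 to 70.9%, which covers counting error only, and none is given for H1299, whose reads are not independent. HIST1H2BK and HIST1H1C were the highest pair in 11 of the 12 libraries. Mock H1299 was the exception, with HIST1H2BO at 51.2 FPKM in second place behind HIST1H2BK at 123 FPKM. The sum of the 9 listed genes with DAC stood to that in Mock at ratios of 1.63 (PC9) to 5.65 (CL1-5), and that of the other 53 at 1.28 (PC9) to 3.12 (H1299).

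In the 5 lines that the study compared (A549, CL1-0, CL1-5, PC9, H1299), log2(FPKM + 0.1) was set against Mock in a limma fit blocked by cell line, and values over the fitted lines are given in that order. Of the 62 members, 54 passed the filter of a mean of 0.1 FPKM. HIST1H1A, HIST1H1T, HIST1H2AA, HIST1H2AM, HIST1H2BA, HIST1H4G, HIST1H4L and HIST3H3 did not, and none of these 8 had more than 20 reads in any library. At a Benjamini-Hochberg adjusted p under 0.05, 2 members were higher and 0 lower, where 0.119% of the 22603 genes tested were called higher and 0% lower. At an unadjusted p under 0.05 the members gave 31 higher and 0 lower, beside 8.07% higher and 4.4% lower of all genes. The log2 fold change was above 0 for 46 of the 54 (85.2%, beside 58.8% of all genes tested), with a median of 0.90, where the median of all genes tested was 0.07. Without H1299 the median of 53 members was 0.73. The DAC value exceeded Mock in 5 of 5 lines for 23 of the 54 genes (42.6%, beside 6.76% of all genes tested), in 4 lines for 10, in 3 for 12, in 2 for 6 and in 1 for 3.

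The 2 members past the adjusted threshold both encode H2B and both belong to the polyadenylated list. HIST2H2BE had 3.02, 1.24, 4.36, 2.24 and 13.1 FPKM in Mock (A549, CL1-0, CL1-5, PC9, H1299), and 7.82, 7.25, 12.9, 7.35 and 31.2 FPKM with DAC. All 5 DAC values lie above the Mock value of their own line, though Mock H1299 is higher than DAC in the other 4 lines. HIST2H2BE rose by 1.65 on the log2 scale (SE 0.19, limma, adjusted p = 0.038). In H1792, which is not in the fit, it went from 5.62 to 6.31 FPKM, a log2 difference of 0.16, so the line left out differed least.

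HIST1H2BD had 9.80, 3.99, 5.46, 4.58 and 32.0 FPKM in Mock (A549, CL1-0, CL1-5, PC9, H1299), and 18.4, 14.7, 20.6, 9.62 and 101 FPKM with DAC. Each line was higher with DAC, and H1299 stood above the others under both treatments. The gene rose by 1.47 on the log2 scale (SE 0.18, limma, adjusted p = 0.0488). In H1792 it went from 1.85 to 11.5 FPKM, a log2 difference of 2.57 that exceeded those of the 5 fitted lines. Neither call held when any 1 of the 5 lines was left out, and the log2 fold change of HIST2H2BE then ranged from 1.45 to 1.76 and that of HIST1H2BD from 1.37 to 1.62.

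The remaining 7 listed genes had unadjusted p under 0.05 without passing the adjusted threshold. HIST1H1C, a linker histone, was among the most abundant histone mRNAs, at 27.0, 106, 53.9, 19.6 and 36.1 FPKM in Mock (A549, CL1-0, CL1-5, PC9, H1299) and 215, 347, 338, 32.4 and 195 FPKM with DAC. It was higher with DAC in each of these lines, with the smallest step in PC9, and went from 34.2 to 171 FPKM in H1792. Its log2 fold change was 2.10 (SE 0.31, limma, adjusted p = 0.0857).

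HIST1H2BK, the H2B gene with the highest Mock level, shares most of its sequence with several other genes combined, so its level is uncertain. It had 32.2, 163, 65.4, 53.8 and 123 FPKM in Mock (A549, CL1-0, CL1-5, PC9, H1299) and 133, 276, 374, 80.3 and 389 FPKM with DAC. All 5 lines were higher with DAC while the 2 sets of values overlap, and the log2 fold change was 1.51 (SE 0.29, limma, adjusted p = 0.170). HIST1H2BJ had 2.06, 6.82, 3.77, 1.57 and 15.2 FPKM in Mock and 9.45, 22.04, 37.4, 4.28 and 51.9 FPKM with DAC in the same order. Its log2 fold change of 2.05 (SE 0.26, limma, adjusted p = 0.0612) was the largest of class H2B, and the step was widest in CL1-5.

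HIST1H2BC had 0.895, 2.79, 1.46, 0.981 and 16.6 FPKM in Mock and 6.54, 11.6, 7.80, 1.81 and 57.2 FPKM with DAC, a log2 fold change of 1.94 (SE 0.26, limma, adjusted p = 0.0716). HIST1H2AC, its neighbour, had 7.16, 6.76, 0.597, 4.18 and 4.95 FPKM in Mock and 13.8, 28.1, 4.57, 6.501 and 7.90 FPKM with DAC, a log2 fold change of 1.40 (SE 0.33, limma, adjusted p = 0.212). H1299, which was highest for HIST1H2BC, was not highest for HIST1H2AC. The list's low end was HIST3H2A, which was higher with DAC in 6 of 6 lines but by at most 0.97 on the log2 scale (CL1-5), with a fitted log2 fold change of 0.49 (SE 0.14, limma, adjusted p = 0.285). HIST4H4, the single gene of the HIST4 locus, stayed below 1.5 FPKM in each library; it was higher with DAC in the 5 fitted lines (log2 fold change 1.43, SE 0.34, limma, adjusted p = 0.215) and lower in H1792, at 0.563 FPKM in Mock and 0.372 with DAC.

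**Figure D2:**
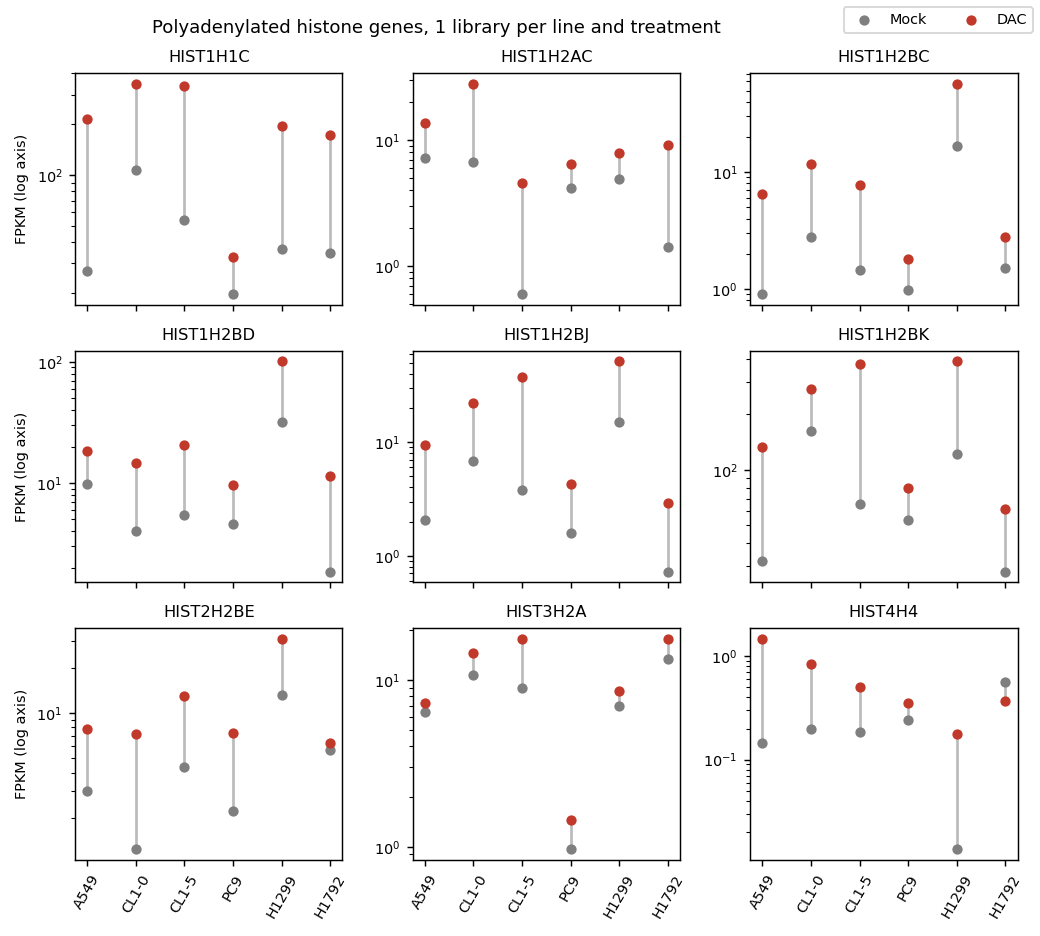
FPKM (log axis) of the 9 listed genes in the 6 lines, 1 panel per gene, with grey points for Mock and red points for DAC joined within a line. In all panels but HIST4H4 the DAC point lies above the Mock point in 6 of 6 lines, and in HIST4H4 the order is turned in H1792 (0.563 against 0.372 FPKM).

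As a group, the 9 listed genes had a median log2 fold change of 1.51, all 9 above 0 and all 9 with an unadjusted p under 0.05. The other 45 members tested had a median of 0.76, with 37 above 0 and 22 with an unadjusted p under 0.05. Without H1299 the medians were 1.58 and 0.56. The list was made with results of these data known, so its median is a description. By annotation, the 16 tested members with an annotated transcript that runs over 200 bp past the stop codon had a median of 1.41, all 16 above 0, and the 37 without one had 0.54, with 29 above 0. Within lines, over counted members, the genes without such a transcript had the higher median in A549 (1.49 against 1.23) and H1299 (1.63 against 1.52), and those with one in the other 4 lines. Of the 9 listed genes 7 have such a transcript and so are among the 16, among them HIST1H2BD and HIST2H2BE, whereas HIST1H1C and HIST1H2BK do not.

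Among linker histones HIST1H1C had by far the highest level and the largest log2 fold change. The summed H1 level was 1.62 (PC9) to 7.50 (A549) times higher with DAC, but the median log2 fold change of the 4 tested genes was 0.57 (0.36 without H1299). Of the 4, 2 had an unadjusted p under 0.05 in limma, HIST1H1C and HIST1H1D. HIST1H1D was at 0.87 (SE 0.24, limma, adjusted p = 0.272) and higher with DAC in 5 of 5 fitted lines, with at most 15 reads in any library. HIST1H1B was at 0.28 (SE 0.41). HIST1H1E was at -0.03 (SE 0.27), with 0.371 to 1.36 FPKM in Mock and 0.401 to 1.31 FPKM with DAC over the 5 lines. It was lower with DAC in A549, CL1-0 and PC9 and higher in CL1-5 and H1299.

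In class H2A, 9 of 11 tested genes were above 0 with a median of 0.54 (0.53 without H1299), and 6 had an unadjusted p under 0.05. HIST2H2AC, the H2A gene with the highest Mock level, had 7.54, 9.34, 18.6, 2.59 and 10.7 FPKM in Mock (A549, CL1-0, CL1-5, PC9, H1299) and 21.5, 17.2, 44.6, 3.88 and 27.8 FPKM with DAC. The 6 lines were all higher with DAC, H1792 included (13.2 to 29.4 FPKM), and the log2 fold change was 1.11 (SE 0.16, limma, adjusted p = 0.0821). HIST1H2AE had the largest log2 fold change of the class, 1.72 (SE 0.61, limma, adjusted p = 0.337), which leaned on A549. There it had 0 reads in Mock and 36 with DAC, which is 10.2-fold higher when Mock is set at a floor of 3 reads. In the other 4 fitted lines its log2 differences were 0.46 (CL1-0) to 1.63 (H1299). In H1792, outside the fit, HIST1H2AE also had 0 reads in Mock, with 12 under DAC and a log2 difference of 3.44. HIST1H2AH marked the low end at -0.33 (SE 0.40), with 1.08 in H1299 and -1.77 in PC9, where it had 5 and 1 reads.

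Class H2B was the most uniform in direction. All 16 tested genes had a log2 fold change above 0, with a median of 0.98 (0.83 without H1299), and 10 had an unadjusted p under 0.05. The 5 listed H2B genes had a median of 1.65 and the 11 others 0.76. HIST2H2BF, which shares most of its sequence with several other genes combined and is uncertain for that reason, had the largest value among those others, 1.44 (SE 0.23, limma, adjusted p = 0.102). The smallest was HIST1H2BL at 0.25 (SE 0.37). It was lower with DAC in A549 (1.53 to 0.729 FPKM) and PC9 (0.296 to 0.177 FPKM) and higher in H1299 (46.9 to 156 FPKM), and without H1299 its log2 fold change was -0.12.

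The 12 tested H3 genes had a median of 0.86 (0.56 without H1299), 11 were above 0, and 7 had an unadjusted p under 0.05. HIST1H3H, the H3 gene with the highest Mock level, had 2.90, 2.26, 0.925, 0.739 and 1.05 FPKM in Mock (A549, CL1-0, CL1-5, PC9, H1299) and 4.73, 4.01, 2.90, 0.454 and 3.18 FPKM with DAC. PC9 was the line where it was lower with DAC, and the log2 fold change was 0.79 (SE 0.31, limma, adjusted p = 0.376). HIST1H3G had the largest value of the class, 1.71 (SE 0.49, limma, adjusted p = 0.282), from 0.18 in PC9 to 3.87 in H1299, where its reads went from 22 to 470. HIST1H3I was at -0.07 (SE 0.41), with at most 16 reads in any library. HIST2H3A, at 1.35 (SE 0.45), and HIST2H3C, at 1.21 (SE 0.30), are near-identical copies whose reads could be divided either way.

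H4 was the most divided class, with the highest median (1.27, and 1.36 without H1299) but 4 of 11 genes below 0. HIST1H4H, whose promoter held none of the searched motifs, had the largest log2 fold change of the whole family at 2.41 (SE 0.34, limma, adjusted p = 0.0821). Its levels were 1.08, 2.86, 1.86, 0.912 and 0.0970 FPKM in Mock (A549, CL1-0, CL1-5, PC9, H1299) and 8.54, 12.2, 18.6, 1.76 and 1.47 FPKM with DAC, and 0.335 and 1.98 FPKM in H1792. It was higher with DAC in 6 of 6 lines, and PC9 had the smallest difference. HIST1H4I, the H4 gene with the highest Mock level, had 4.47, 19.9, 9.30, 7.29 and 8.93 FPKM in Mock and 15.6, 38.4, 52.3, 11.3 and 35.1 FPKM with DAC, and a log2 fold change of 1.56 (SE 0.27, limma, adjusted p = 0.131). HIST1H4E was at 1.44 (SE 0.24, limma, adjusted p = 0.122) and HIST2H4A at 1.46 (SE 0.22, limma, adjusted p = 0.0857). The latter has the same sequence as HIST2H4B, so the level of the pair and not of each copy is measured.

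At the other end of class H4, HIST1H4A was at -0.74 (SE 0.39, limma, adjusted p = 0.465), with at most 7 reads in any library. HIST1H4J was at -0.62 (SE 0.34, limma, adjusted p = 0.473) and its near-identical copy HIST1H4K at -0.23 (SE 0.17). HIST1H4J had 3.003, 4.43, 9.002, 0.387 and 2.16 FPKM in Mock (A549, CL1-0, CL1-5, PC9, H1299) and 2.01, 4.71, 7.84, 0 and 1.93 FPKM with DAC. In PC9 HIST1H4J had 3 reads in Mock and 0 with DAC, a log2 difference of -2.28 that weighs on its fitted value. Its differences in the other fitted lines ran from -0.55 (A549) to 0.09 (CL1-0). Outside PC9 this pair had more reads than HIST1H4A. The pair stayed level or lower in the lines where HIST1H4H and HIST1H4I were higher, and CL1-0 was the line where it was slightly higher. HIST1H4C was at -0.01 (SE 0.40).

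**Figure D3:**
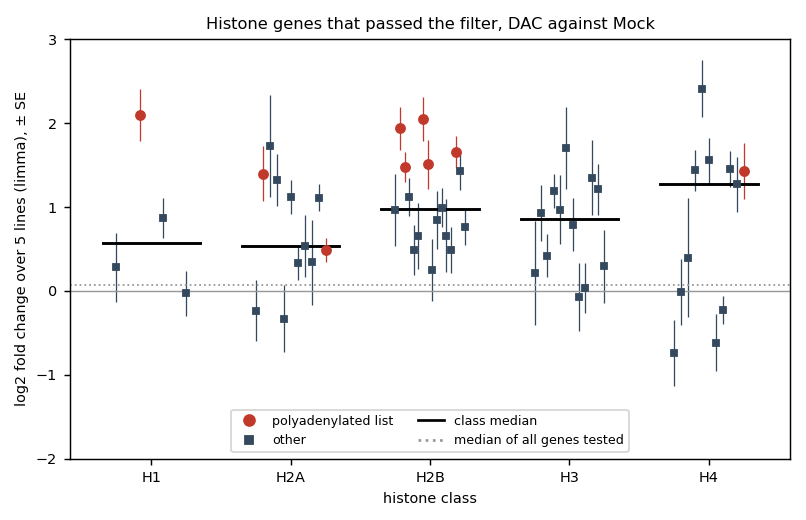
Log2 fold change over 5 lines (limma, ± SE) of the 54 tested members by histone class, with red circles for the polyadenylated list, dark squares for the others, a black bar at each class median and a dotted line at the median of all genes tested (0.07). All 16 H2B genes lie above 0, while the 11 H4 genes run from -0.74 to 2.41.

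Near-identical sequence limits 12 of the 61 placed members, for which at least 50% of the stretches of 50 bases also occur in 1 or more other genes combined: HIST1H2AI, HIST1H2AJ, HIST1H2AM, HIST1H2BK, HIST1H4J, HIST1H4K, HIST2H2BF, HIST2H3A, HIST2H3C, HIST2H3D, HIST2H4A and HIST2H4B. The 11 tested among them had a median log2 fold change of 1.21 and the 43 other tested members 0.84. FPKM also rests on the gene length used by the authors, which differs widely: in Mock A549, 12 reads gave 0.217 FPKM for HIST1H2BE and 1.47 FPKM for HIST1H2BO.

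Within a line, with 1 library per treatment and no test, a gene was counted when its Mock and DAC libraries together held at least 20 reads and was called past a 2-fold difference of FPKM + 0.1. A549 had 35 members counted, 20 higher and 0 lower, where 12.8% of all counted genes were higher and 5.8% lower. In CL1-0 the 41 members gave 19 higher and 1 lower, beside 4.19% and 0.72% of all genes. CL1-5 gave 26 higher and 0 lower of 43, beside 5.41% and 2.48%.

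PC9 had the fewest members past the fold, with 4 higher and 0 lower of 25, beside 7.44% and 1.03% of all genes. H1299 gave 39 higher and 0 lower of 45, beside 11.2% and 3.97%, and H1792 gave 13 higher and 1 lower of 30, beside 9.47% and 3.97%. The counted members had a median log2 difference of 0.62 in PC9, 0.88 in H1792, 0.95 in CL1-0, 1.25 in CL1-5, 1.32 in A549 and 1.63 in H1299. Over the 54 tested genes, H1299 was the fitted line with the largest difference for 21 genes and CL1-5 for 14, and PC9 was the line with the smallest for 32. No read limit was set for this ranking, and in PC9 only 25 members were counted, so part of it rests on few reads.

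The listed genes and the rest parted differently by line. Of the 9 listed genes, all counted in each line, 3 were at least 2-fold higher in PC9, 5 in H1792, 6 in A549, 7 in CL1-0, 7 in H1299 and 8 in CL1-5. For the other members the numbers in the same order were 1 of 16, 8 of 21, 14 of 26, 12 of 32, 32 of 36 and 18 of 34. H1299 is the line in which the unlisted members passed 2-fold in a larger share than the listed ones. In PC9 the listed genes past 2-fold were HIST1H2BD, HIST1H2BJ and HIST2H2BE, and the unlisted one was HIST1H4E.

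The largest difference among counted members belonged to a different gene in each line. It was 4.86 for HIST1H2AE in A549, 2.72 for HIST2H3A in CL1-0, 3.28 for HIST1H2BJ in CL1-5, 2.2 for HIST1H4E in PC9, 3.87 for HIST1H3G in H1299 and 2.61 for HIST1H2AC in H1792, each on the log2 scale. HIST1H4E in PC9 went from 14 to 84 reads, and HIST1H2AC in H1792 from 59 to 369 reads. HIST2H3A in CL1-0 went from 3 to 52 reads. Its near-identical copy HIST2H3C went from 13 to 63 reads there, a log2 difference of 1.68, so the size for each copy is uncertain. Among counted members, values at least 2-fold lower with DAC were limited to HIST1H4C in CL1-0 (-1.49, 22 reads in Mock and 9 with DAC) and HIST1H2AI in H1792 (-1.03, 14 and 6 reads). HIST1H4C was counted in no other line, and HIST1H2AI was at least 2-fold higher in A549, CL1-5 and H1299.

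**Figure D4:**
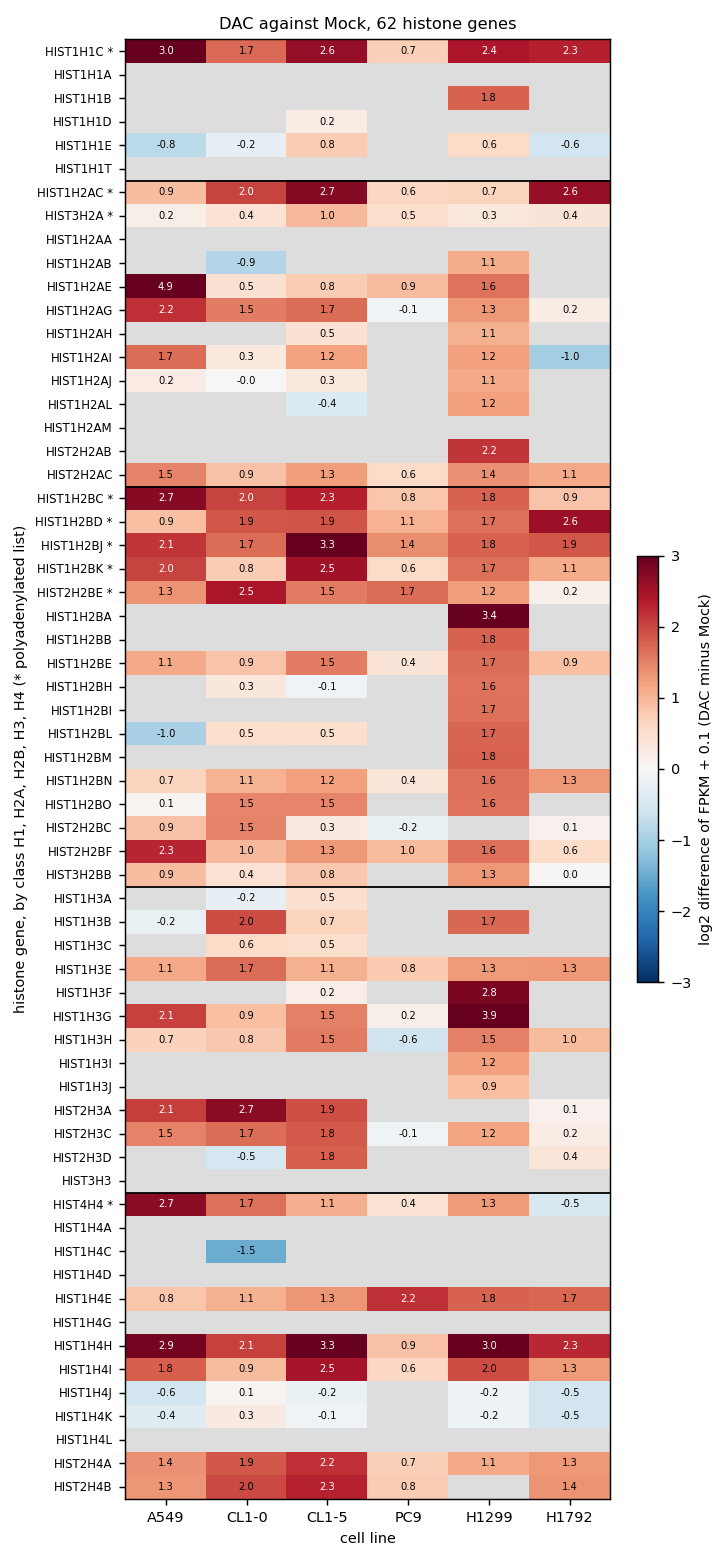
Difference of log2(FPKM + 0.1), DAC minus Mock, for the 62 members (rows, by class, * for the polyadenylated list) in 6 lines (columns), with grey cells where the 2 libraries together held under 20 reads. Red (higher with DAC) prevails in each column, PC9 is palest, and blue is limited to single genes such as HIST1H4C in CL1-0 (-1.49).

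H1299 had the highest Mock level of class H2B. The 12 unlisted H2B genes summed to 215 FPKM in Mock H1299 and to 2.73 (PC9) to 13.2 (CL1-5) FPKM in the other Mock libraries. With DAC the sum was 697 FPKM in H1299. HIST1H2BI, for instance, had 852 reads in Mock H1299 and 2492 with DAC, and at most 9 reads in any other library. The 15 H2B genes with at least 20 reads in both H1299 libraries had log2 differences between 1.25 and 1.77 with an SD of 0.16, whereas the SD was 0.68 (A549) to 1.02 (CL1-5) in the other lines. Whether the even read numbers in H1299 bear on this was not tested. H2A did not share the pattern to the same degree, with an SD of 0.37 over 10 genes in H1299 and 0.39 to 1.09 elsewhere.

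**Figure D5:**
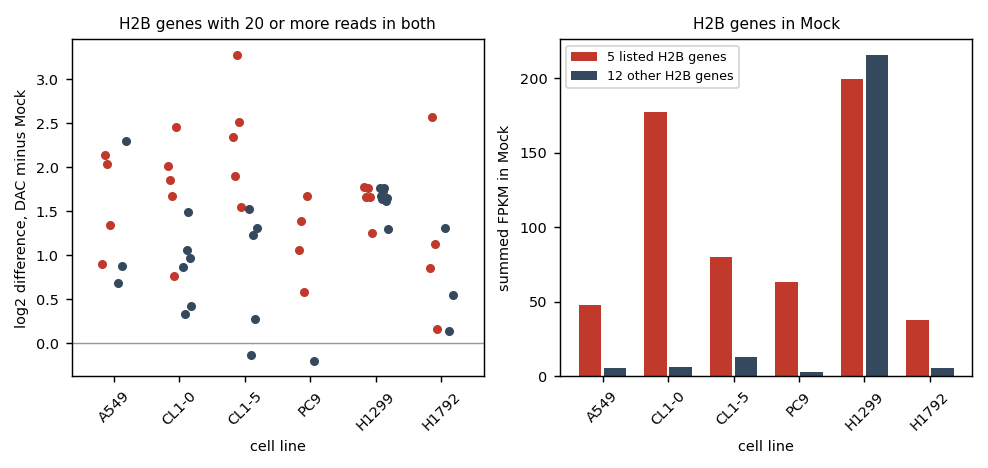
Left, log2 difference (DAC minus Mock) of each H2B gene with at least 20 reads in both libraries of a line, with red points for the 5 listed and dark points for the 12 other H2B genes. Right, summed FPKM of both sets in Mock, where the unlisted set reaches 215 in H1299 and at most 13.2 elsewhere.

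Histone genes often lie in divergent pairs that share a promoter region. Here 10 pairs of members start head to head, 215 to 979 bp apart, and 9 of them join an H2A and an H2B gene. HIST2H2BE and HIST2H2AC (236 bp) had log2 fold changes of 1.65 and 1.11 and the same sign in 5 of 5 lines. HIST1H2BC and HIST1H2AC (246 bp) had 1.94 and 1.40, also with the same sign in 5 of 5. HIST1H2BJ and HIST1H2AG (248 bp) had 2.05 and 1.32 with the same sign in 4 of 5. A pair whose fitted values parted was HIST1H2BK and HIST1H2AH (251 bp), with 1.51 and -0.33 and the same sign in 2 of 5 lines. The signs differed in A549, CL1-0 and PC9, where HIST1H2AH had at most 6 reads per library, too few to show a direction. In H1299, where HIST1H2AH had 162 reads in Mock and 318 with DAC, both were higher (1.66 and 1.08).

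Grouped by the stem-loop spelling printed above, the 6 tested genes with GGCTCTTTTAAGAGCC had a median log2 fold change of 1.61 and the 32 with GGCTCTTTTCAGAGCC 0.78. For class H4 it was 1.36 over 4 genes with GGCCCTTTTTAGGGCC and 0.39 over 7 with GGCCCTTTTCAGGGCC. Listed genes are 4 of the 6 tested with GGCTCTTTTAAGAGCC and 4 of the 32 with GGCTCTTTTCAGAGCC.

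The genes that make and process histone mRNA are given beside the members. Of 16 genes for transcription and processing, all tested, 0 passed the adjusted threshold in limma, 1 was higher and 2 lower at an unadjusted p under 0.05, and the median log2 fold change was 0.08. NPAT was at 0.23 (SE 0.18, limma, adjusted p = 0.598) and SLBP at 0.16 (SE 0.20, limma, adjusted p = 0.738). Genes of histone variants outside the clusters mostly give polyadenylated mRNA that is not confined to S phase. They had a median of -0.22 over 12, with 1 above 0 and 0 called (0 higher and 1 lower at an unadjusted p under 0.05). The 11 histone chaperone genes had a median of -0.09 and 0 called, with 0 higher and 1 lower at an unadjusted p under 0.05.

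S phase and arrest genes are given beside the histone genes because replication-dependent histone mRNA follows S phase. Of 18 S phase genes 0 were called, and 0 had an unadjusted p under 0.05 in either direction, with a median of -0.09. By line their median log2 difference was -0.68 in H1792, -0.55 in A549, -0.47 in PC9, -0.29 in CL1-0, 0.44 in CL1-5 and 0.51 in H1299. CL1-5 and H1299 are thus the lines with positive S phase medians, while the histone sum was higher with DAC in 6 of 6. For the members outside the polyadenylated list, the ratio of the DAC sum to the Mock sum was highest in those same lines. It was 3.12 in H1299 and 2.52 in CL1-5, beside 2.225 in A549, 1.905 in CL1-0, 1.64 in H1792 and 1.28 in PC9. Of 6 arrest genes 0 were called, 1 was higher at an unadjusted p under 0.05 (CDKN1A, 0.71, SE 0.16, limma, adjusted p = 0.204), and the median was 0.27. RNAs that lack a poly(A) tail were listed to see how strictly tails were captured. Of 14, 7 were in the table and 4 were tested, with a median of -0.39, 1 higher and 1 lower at an unadjusted p under 0.05, and a sum of 5.78 to 28.8 FPKM in Mock and 4.27 to 36.3 FPKM with DAC. By line, 1 gene was counted in H1299 and 2 in each other line, too few to give the list a direction. The part of the cell cycle or of tail capture in the histone differences was not tested.

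Among epithelial and fibroblast marker genes 0 were called. Of 6 epithelial markers 1 was higher and 0 lower at an unadjusted p under 0.05 (median 0.68), and of 3 tested fibroblast markers 2 and 0 (1.24).

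Open chromatin at the histone genes was largely in place before DAC. The ATAC libraries are named by their labels, but the names inside the deposited peak lists exchange CL1-5 and PC9, so values of those 2 lines may belong to the other. A peak within 3000 bp of the start was listed in Mock and DAC for 53 and 55 of 61 members in A549, for 50 and 53 in CL1-5, for 57 and 55 in PC9 and for 51 and 55 in H1299. Among 20114 other protein-coding genes 70.2 to 76.7% had one in Mock and 73.2 to 78.7% with DAC. A peak was gained by 3, 4, 0 and 4 members and lost by 1, 1, 2 and 0 in the same order, where 4.35 to 5.35% of the other genes gained one and 1.92 to 3.38% lost one. Neighbouring members can share a peak, so these are not counts of separate sites. Under the CL1-5 label HIST1H2BH, HIST1H3F and HIST1H4G had the same fold enrichment of 4.24 with DAC. In H1299, HIST1H2BB and HIST1H3C both had 3.40 with DAC. With 61 members, 3 gained peaks are 4.92%, near that background. Over all 8 lists, 42 of 61 members (68.9%) had a peak in each, beside 61.8% of the other genes. HIST2H4A and HIST2H4B had none in any. These 2 genes have the same sequence, promoter letters included, so reads there cannot be assigned to 1 copy. The absence of a peak therefore need not mean closed chromatin.

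Median peak heights were lower with DAC. The median ratio of fold enrichment, DAC over Mock, was 0.958 (A549), 0.879 (CL1-5), 0.843 (PC9) and 0.858 (H1299) for members with a peak under both treatments, and 0.947, 0.854, 0.895 and 0.889 for other genes. HIST2H2BE, whose promoter is printed above, had fold enrichments of 3.91 and 3.94 (A549), 3.46 and 3.32 (CL1-5), 3.61 and 3.04 (PC9), and 5.11 and 4.03 (H1299) in Mock and DAC. Its neighbours HIST2H2AC and HIST2H2AB had the same values. HIST1H4H had 7.18 and 6.18, 5.34 and 4.36, 7.31 and 5.54, and 9.23 and 7.92 in the same order, lower with DAC in 4 of 4 lines. All 9 listed genes had a peak in each of the 8 lists. Among all genes, those without a peak included, the members' median percentile of fold enrichment ran from 43.6 (PC9) to 56.4 (H1299) in Mock and from 40.8 (PC9) to 54.6 (H1299) with DAC, near the middle of all genes. The genes that gained a peak are given with their log2 RNA difference in the same line. In A549 they were HIST1H2AE (4.86, with 0 reads in Mock), HIST2H3A (2.07) and HIST3H3 (-0.11). The HIST2H3A peak had a fold enrichment of 3.93 with DAC, while its near-identical copy HIST2H3C lost a peak of 4.63 there. Neither copy had a peak over its start site. Reads could be divided either way between these copies, so this gain need not be a change in open chromatin. Under the CL1-5 label they were HIST1H2BH (-0.13), HIST1H3F (0.20), HIST1H4G (0) and HIST1H4J (-0.20). In H1299 they were HIST1H1T (1.64), HIST1H2BB (1.76), HIST1H2BE (1.67) and HIST1H3C (1.34). A link between gained peaks and RNA was not tested. Peaks were called per library, with 45354 to 85710 in Mock and 63541 to 97584 with DAC, and more in DAC in each line. With equal numbers of the strongest peaks kept in both libraries of a line, the members' median ratios were the same as above and 2 (A549), 4 (CL1-5), 0 (PC9) and 3 (H1299) members gained a peak.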

How the data were processed

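For mRNA-seq the authors used RSEM with bowtie2 on trimmed reads and hg19 (the submitters' processing notes list TopHat2 2.1.1), took counts over GENCODE genes of GRCh37, and deposited FPKM values that DESeq2 1.24.0 had scaled. Whether counting used strand is not given in the sources used here. The same table holds the authors' mean normalized signal per gene, and their own log2 fold change with its error and test score and p-values, which were not used. For Omni-ATAC-seq the authors aligned reads with BWA 0.7.17 and called broad peaks per library with MACS2 2.2.5. Each deposited list gives per peak a score, −log10 p- and q-values and a fold enrichment, a ratio to local background. Columns of values without a sample numbered 0.

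The reads behind each FPKM value were recovered from the mean signal as whole multiples, within 0.01 of a read, and 100% of values were whole. A filter at a mean of 0.1 FPKM over 10 libraries left 22603 genes, whose log2(FPKM + 0.1) entered limma 3.58.1 (R 4.3.3) blocked by cell line, with an intensity trend and Benjamini-Hochberg adjustment over all of them. H1792 was kept out of the fit, as in the study's own comparison of lines. Mock and DAC libraries of a line are pairs by design, and once treatment means were removed they correlated at 0.731 to 0.900, where libraries of different lines reached at most 0.115. Tables were handled with Python 3.11.15, numpy 2.4.6, pandas 2.3.3 and scipy 1.17.1, and figures drawn with matplotlib 3.10.9. The scripts were tested on simulated data. Positions, stem-loops and shared sequence come from a GRCh37 genome and annotation (59 members matched by gene ID and 2 by current symbol), promoters from RefSeq on GRCh38.p14.

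Named genes were all 9 listed members, in each class the member with the highest Mock FPKM and those with the largest and smallest log2 fold change, members past the threshold, up to 10 members with the smallest p, the largest rise and fall in each line, and NPAT and SLBP. Others named were chosen after their values were seen. The members and lists were chosen with earlier results of these data known. Alternatives covered the lines fitted, the block, pseudocount, filter, scaling, trend, a count model (voom), fold and read limits, and peak distance and threshold. Alternatives chosen after seeing the data were leaving near-identical copies out of the medians and counting peaks over the start site alone. One further list of marker genes is not reported here. Floors and intervals cover counting error only.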

Additional observations from a re-analysis of the deposited data

Results flagged for a closer look

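HIST1H2AE was singled out because A549 lay far from the other fitted lines. Its log2 difference was 4.86 there and 1.63 in the nearest fitted line, a gap of 0.733 of the whole range over 5 lines. H1792, which is not in the fit, lay nearer to A549, at 3.44 with 0 reads in Mock and 12 with DAC. The Mock library of A549 had 0 reads. With Mock set at a floor of 3 reads, the 36 DAC reads gave a 10.2-fold difference. That value leaves out the counting error of the DAC reads and any spread between cultures. The fitted value depends on the pseudocount. It was 1 of 34 results examined in this way, and chance gives about 1 such result in 20 groups.

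HIST1H2AI moved in opposite directions between lines. Its log2 difference was -1.03 in H1792, with 14 reads in Mock and 6 with DAC, while it was at least 2-fold higher in A549, CL1-5 and H1299. The difference between lines was not tested, each line has 1 library per treatment, and the gene shares most of its sequence with HIST1H2AJ.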

How the results depend on the processing

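The count of 2 members past the adjusted threshold depended on the settings. It was 7 with H1792 added, 13 with voom on the recovered reads (178 of all genes higher), 3 after rescaling to a common sum, 4 at a mean FPKM of at least 1, 1 at a pseudocount of 0.01 or with quantile normalization, and 0 at a pseudocount of 1, with no filter on low values or with no intensity trend. With the pairing by cell line dropped (no block), 0 members were called. Leaving out 1 line gave 0 to 2 calls; the 2 without PC9 were HIST1H2BC and HIST1H4H, neither of which was among the original 2. HIST2H2BE lost its call with H1792 added. No setting called a member lower. The all-gene median of 0.07 became 0.17 after rescaling to a common sum and -0.04 after quantile normalization, which took the number of members above 0 from 46 to 49 and 42.

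Medians that moved by more than the spread between lines were all members at a pseudocount of 1 (0.46), H1 at a mean FPKM of at least 1 (2.10), H2A at a pseudocount of 0.01 (1.11), H2B with voom (1.49), and H4 at a pseudocount of 1 (0.48), with no filter (0.39) and with voom (1.64). Within lines, A549 had 13 higher without near-identical copies and 2 lower at 1.5-fold, CL1-0 had 2 lower at 1.5-fold and 0 at 100 reads, PC9 had 14 higher at 1.5-fold, 7 after rescaling to a common sum and 1 lower at 1.5-fold, and H1792 had 2 lower at 1.5-fold and 0 at 100 reads or without near-identical copies. The cause of these shifts was not tested.

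Genes near 0 changed sign. HIST1H1E was at 0.085 after rescaling and ran from -0.23 to 0.17 when 1 line was left out (above 0 without A549, CL1-0 or PC9). HIST1H2AH was at 0.045 at a pseudocount of 1, 0.22 with voom and -0.68 to 0.028 with 1 line out (above 0 without PC9). HIST1H2BL ran from -0.12 to 0.56 with 1 line out (below 0 without H1299). HIST1H3I was at 0.040 with H1792, 0.043 at a pseudocount of 1 and -0.40 to 0.34 with 1 line out (above 0 without PC9). HIST1H4C was at 0.12 with H1792, 0.056 at a pseudocount of 0.01, 0.087 after rescaling and -0.40 to 0.36 with 1 line out (above 0 without CL1-0 or PC9). Of the other values for single genes, 357 kept their direction and their side of the threshold, 19 passed it and 21 no longer did. Numbers of members with a peak kept within the limits set under each alternative, the exchange of CL1-5 and PC9 included. Numbers of members that gained a peak varied more. In H1299 they were 4 within 3000 bp, 5 within 1000 bp and 2 over the start site. With peaks limited to q under 0.01, 9 members (14.75%) gained one in H1299, beside 3.42% of the other genes. Precision is limited by 1 library per line and treatment and, for low genes, by reads.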
